A study of Mus musculus with 8 samples.

Results

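The acute phase proteins examined here are the serum amyloid A proteins Saa1, Saa2, Saa3 and Saa4, lipocalin 2 (Lcn2), haptoglobin (Hp), hemopexin (Hpx) and ceruloplasmin (Cp). These 8 genes were taken by symbol from 21335 gene symbols on the array, and the probe set of each symbol was selected on its mean value, the highest over all arrays being kept. Every one of the 8 had exactly 1 probe set, and that probe set named no other gene, so no choice between probe sets was made. The genes themselves were chosen with the earlier hemophagocyte and resting values of these arrays known. Their values are therefore given as a description, and the adjusted p-values beside them come from the fit over all genes.

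Hemophagocytes are macrophages that have engulfed blood cells. The donors were C57Bl/6j males, wild type and 8 weeks of age. They were injected intraperitoneally on alternate days, 4 doses in all, with 37.5 ug of CpG1826 plus 200 ug of antibody clone 1B1.3A. CpG1826 is a DNA oligonucleotide that stimulates Toll-like receptor 9, and the antibody blocks the IL-10 receptor. Resting splenic macrophages came from males of the same strain, genotype and age, given 200 uL of PBS on the same schedule. From touch preparations of the spleen, 20 target cells per mouse were laser-captured and pooled, their small RNA yield went through a NuGen amplification kit (WT-Ovation One-Direct), and each group had 4 Affymetrix Gene ST 1.0 arrays. The arrays are called by the numbers in their titles, hemophagocytes 2, 3, 5 and 6 and resting macrophages 3, 4, 5 and 6. No resting macrophages from CpG1826-treated mice were among these arrays, so engulfment and treatment cannot be told apart. Fewer cells carrying a transcript and less of it per cell cannot be told apart either in pooled cells.

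Acute phase proteins are secreted proteins whose plasma levels shift within hours of infection or injury. The liver makes most of them, under IL-6, IL-1 and TNF, through the transcription factors STAT3, C/EBP and NF-kB. Some are also made by leukocytes. In the mouse, Saa3 is the serum amyloid A made by activated macrophages and fat tissue, Saa1 and Saa2 come chiefly from the liver, and Saa4 is made without induction. Lcn2 withholds iron from bacteria by binding their siderophores and is stored in neutrophil granules. Hp binds free hemoglobin, Hpx binds free heme, and Cp oxidises iron so that it can be loaded onto transferrin.

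Saa3, Lcn2 and Hp were the members with higher values on all 4 hemophagocyte arrays than on any resting array. The promoters of Saa3 and Lcn2 are shown with that of Saa1, a relative of Saa3 whose values overlapped between the groups. Each window runs from 250 bases before to 50 bases after the annotated start, 5′ to 3′ along the gene's strand, as RefSeq gives it in GRCm38.p6. Capitals mark matches on either strand to TTNNGNAA, a loose form of the C/EBP motif. Saa3 lies at chr7:46715627-46715926, minus strand, Lcn2 at chr2:32387690-32387989, minus strand, and Saa1 at chr7:46742931-46743230, minus strand.
Saa3: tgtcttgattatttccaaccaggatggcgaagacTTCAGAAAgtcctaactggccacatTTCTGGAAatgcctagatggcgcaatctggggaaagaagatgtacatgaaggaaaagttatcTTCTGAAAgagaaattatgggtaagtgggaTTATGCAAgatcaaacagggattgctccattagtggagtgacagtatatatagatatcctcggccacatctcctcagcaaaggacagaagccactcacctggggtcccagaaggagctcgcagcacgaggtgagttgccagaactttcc
Lcn2: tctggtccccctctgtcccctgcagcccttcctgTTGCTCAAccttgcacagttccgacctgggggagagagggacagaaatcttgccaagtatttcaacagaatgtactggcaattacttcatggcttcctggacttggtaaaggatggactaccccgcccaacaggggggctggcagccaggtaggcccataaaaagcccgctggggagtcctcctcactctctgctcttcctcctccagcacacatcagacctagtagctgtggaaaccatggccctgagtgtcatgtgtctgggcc
Saa1: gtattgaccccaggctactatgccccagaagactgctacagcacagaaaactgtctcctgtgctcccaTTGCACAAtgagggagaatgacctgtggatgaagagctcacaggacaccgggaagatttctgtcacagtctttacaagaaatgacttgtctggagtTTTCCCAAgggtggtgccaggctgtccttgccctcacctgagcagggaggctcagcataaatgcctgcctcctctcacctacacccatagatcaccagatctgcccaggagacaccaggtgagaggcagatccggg

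The Saa3 window held 4 such matches, the nearest to the start beginning at -99, the Lcn2 window 1 at -216, and the Saa1 window 2. The other genes with a window here were Saa2, Saa4, Hpx and Cp, and all 7 genes had at least 1 match. Of 32851 windows of this length over all genes, 40.7% had one, so the motif is common at this looseness. A loose NF-kB motif, GGG and CC with any 5 bases between them, was found in 5 of the 7 genes, Saa3 and Hpx being the exceptions, and in 50.8% of all windows. TTCNNNGAA, a STAT motif, was found in 0 of the 7 and in 8.3% of all windows, and TATAAA in Cp alone and in 13.6% of all windows. Both strands were read for each motif. Cp had 2 windows, and its NF-kB and TATAAA matches were all in 1 of them. The counts are thus per gene, whereas the shares are per window. A C/EBP and an NF-kB match did not share bases in any of these windows. These matches describe letters only. The windows of Saa1 and Saa2 were identical at 95.3% of aligned positions, whereas those of Saa1 and Saa3 were identical at 50.9%, within the 43.3% to 51.9% of all other pairs.

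Saa3 had far higher values in hemophagocytes. Its probe set (10563597) stood at 10.55, 10.62, 11.06 and 10.75 (log2) on hemophagocytes 2, 3, 5 and 6, against 8.41, 8.89, 7.01 and 6.75 on resting macrophages 3, 4, 5 and 6. The groups were well apart, with 1.66 log2 units between the lowest hemophagocyte and the highest resting array. Hemophagocytes lay close together (10.74 ± 0.23, mean ± SD, n = 4) and resting macrophages did not (7.77 ± 1.05, n = 4), since resting macrophages 3 and 4 stood more than a log2 unit above resting macrophages 5 and 6. The fold was 7.88 (95% interval 4.21 to 14.8), a log2 change of 2.98 (SE 0.41).

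Against all genes this change was among the largest. Of the 20220 probe sets fitted, 3 had a larger change, and Saa3 ranked 5 by p. It did not pass the threshold of 0.05 (limma adjusted p = 0.081), which 4 probe sets passed, those of Gng5, S100a6, Ftl1 and a shared probe set of Ino80 and Rpl35a. S100a6 is named here after its value was seen. Without resting macrophage 4, the resting array with the highest Saa3 value, the change was 3.35 and passed (limma adjusted p = 0.028). Over the other 20 alternative settings the change was 2.64 to 3.42 and did not pass, and over all 21 the adjusted p ran from 0.028 to 0.742.

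The array's background gives a measure of how far Saa3 stood above no signal. The values carry no detection call, so 1170 probe sets of olfactory and vomeronasal receptors, genes of sensory neurons, were taken as a measure of background on each array. On all 4 hemophagocyte arrays Saa3 lay above 100% of them after rounding. On resting macrophages 3 and 4 it lay above 99.6% and 100%, and on resting macrophages 5 and 6 above 72.8% and 63.2%. On these last arrays its value was thus within the range of the receptor probe sets. Probe sets differ in affinity, and such a position is a description only.

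**Figure D1:**
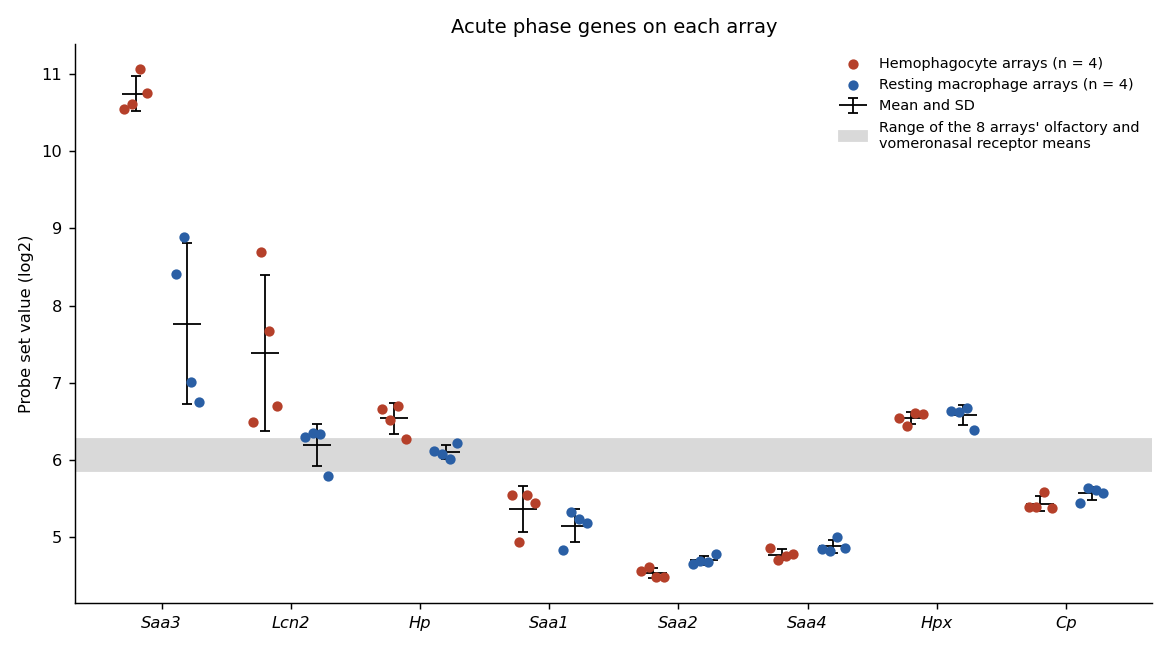
Probe set values (log2, vertical axis) of the 8 acute phase genes, hemophagocyte arrays in red and resting macrophage arrays in blue to their right, with mean and SD (n = 4 each); the grey band spans the 8 arrays' mean values of olfactory and vomeronasal receptor probe sets. Saa3 stood at 10.55 to 11.06 in hemophagocytes against 6.75 to 8.89 in resting macrophages, Lcn2 was spread over 2.21 log2 units in hemophagocytes, and the other 6 genes showed small differences.

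Lcn2 also had higher values in hemophagocytes, but mainly on a pair of arrays. Its probe set (10481627) stood at 6.48, 8.70, 7.67 and 6.70 on hemophagocytes 2, 3, 5 and 6, against 6.29, 6.35, 6.34 and 5.79 on resting macrophages 3, 4, 5 and 6. Hemophagocytes 3 and 5 were high, while hemophagocyte 2 lay only 0.14 above the highest resting array. The means were 7.39 ± 1.01 and 6.19 ± 0.27 (SD, n = 4 each), a fold of 2.29 (95% interval 1.24 to 4.23), and the difference did not pass (limma adjusted p = 0.745, log2 change 1.20, SE 0.40). Without hemophagocyte 3 the change was 0.76, and without hemophagocytes 3 and 5 together it was 0.40. With array background as a covariate it was 0.63. On hemophagocyte 3 Lcn2 lay above 99.9% of the receptor probe sets, and on the resting arrays above 29.7% to 50.8%, that is, in the middle of them.

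Some markers of other blood cells were high on the hemophagocyte arrays where Lcn2 was high. Among 15 neutrophil markers 0 passed, 6 changes lay above 0 and 9 below, and the median was -0.05. The mean over the list was 6.33 to 6.60 on hemophagocyte arrays and 6.30 to 6.34 on resting arrays. S100a8, an abundant calcium-binding protein of neutrophils and monocytes, stood at 4.60, 8.02, 6.41 and 5.12 on hemophagocytes 2, 3, 5 and 6, whereas the resting arrays had 4.86 to 5.02. Its partner S100a9 stood at 6.35, 9.12, 6.01 and 7.33 on the same hemophagocytes, whereas the resting arrays had 6.12 to 6.34. Both were highest on hemophagocyte 3, as was Lcn2, but on hemophagocyte 5 only S100a8 was above the resting arrays. S100a9 was also above the resting arrays on hemophagocyte 6, where Lcn2 was 6.70. The granule proteins Ngp, Camp and Ltf, which share neutrophil granules with Lcn2, stood at 5.81 to 6.09, 6.69 to 6.86 and 5.86 to 6.23 in hemophagocytes and at 5.99 to 6.22, 6.75 to 6.84 and 6.06 to 6.098 in resting macrophages. On hemophagocyte 3 they lay above 52.5%, 75.3% and 53.2% of the receptor probe sets, so their values there were within the background measure.

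Macrophage markers were uneven over the same arrays. The mean over 18 of them was 6.43, 6.89, 7.36 and 6.49 on hemophagocytes 2, 3, 5 and 6, whereas the resting arrays had 6.53 to 6.66, and 0 of the 18 passed. Lyz2, the lysozyme of macrophages and neutrophils, stood at 5.86, 9.95, 9.96 and 6.55 on hemophagocytes 2, 3, 5 and 6, whereas the resting arrays had 7.45 to 8.89. Cd68, a lysosomal protein of macrophages, stood at 7.21, 9.66, 10.52 and 7.50 on the same hemophagocytes, whereas the resting arrays had 7.29 to 7.50. The receptors Adgre1 (F4/80) and Csf1r define tissue macrophages. On the resting arrays they lay above 26.1% to 31.9% and 44.9% to 53.2% of the receptor probe sets, within the background measure. On hemophagocytes 2, 3, 5 and 6 Adgre1 lay above 27.7%, 42.1%, 88.5% and 29.9%, and Csf1r above 40.4% to 62.6% in hemophagocytes. Other macrophage markers stood higher on the resting arrays, Cd68 above 85.5% to 89.6% of these probe sets and Lyz2 above 88.4% to 100%. The complement genes C1qa, C1qb and C1qc, made by tissue macrophages, lay above 78.3% to 86.1%, 83.1% to 95% and 64.2% to 85.2% there. On hemophagocyte 2, where Lyz2 lay above only 37.4% of these probe sets, Saa3 was 10.55.

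Pf4, a chemokine of platelets and megakaryocytes, stood at 6.099, 10.35, 9.11 and 5.49 on hemophagocytes 2, 3, 5 and 6, whereas the resting arrays had 6.61 to 7.41. The mean over the 6 platelet markers measured was 6.55, 7.16, 7.04 and 6.40 on the same hemophagocytes, whereas the resting arrays had 6.61 to 6.78. Pf4 was thus high on hemophagocytes 3 and 5, as was Lcn2. Over the 6 platelet markers, Pf4 included, 3 changes lay above 0 and 3 below, with a median of -0.02. The part of cell mixture in the Lcn2 values was not tested. In the other 9 marker lists (monocyte, dendritic, erythroid, platelet, T, B, plasma, NK and stromal cells) 0 genes passed, and the median changes were -0.14 to 0.01.

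Hp had slightly higher values on all 4 hemophagocyte arrays. Its probe set (10581605) stood at 6.66, 6.52, 6.70 and 6.27 on hemophagocytes 2, 3, 5 and 6, against 6.12, 6.07, 6.01 and 6.22 on resting macrophages 3, 4, 5 and 6. All hemophagocytes were above all resting arrays, though hemophagocyte 6 by only 0.05 over resting macrophage 6. The means were 6.54 ± 0.20 and 6.104 ± 0.09 (SD, n = 4 each), a fold of 1.35 (95% interval 1.16 to 1.58) that did not pass (limma adjusted p = 0.745, log2 change 0.43, SE 0.10). Over 21 alternative settings the change was 0.36 to 0.52 and the adjusted p 0.27 to 0.97. Hp lay above 47.4% to 70.3% of the receptor probe sets in hemophagocytes and above 35.4% to 44.5% in resting macrophages, so both groups were within the background measure.

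The other serum amyloid A genes had small changes. Saa1 stood at 5.54, 4.93, 5.54 and 5.44 on hemophagocytes 2, 3, 5 and 6, against 4.84, 5.32, 5.24 and 5.18 on resting macrophages 3, 4, 5 and 6, and the groups overlapped. Its change was 0.22 (95% interval -0.11 to 0.55, limma adjusted p = 0.76). It was 0.36 without hemophagocyte 3, 0.11 without resting macrophage 3 and 0.06 without hemophagocyte 2 and resting macrophage 3 together. With array background as a covariate it was 0.51, and it did not pass under any alternative that gave a value. Saa4 stood at 4.70 to 4.86 in hemophagocytes and 4.81 to 4.996 in resting macrophages, with overlapping groups and a change of -0.11 (95% interval -0.26 to 0.05, limma adjusted p = 0.76).

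Saa2 was the only member with lower values on all hemophagocyte arrays. It stood at 4.56, 4.61, 4.49 and 4.48 on hemophagocytes 2, 3, 5 and 6, against 4.65, 4.69, 4.67 and 4.78 on resting macrophages 3, 4, 5 and 6. The groups were apart by a margin of a few hundredths of a log2 unit, with a change of -0.16 (95% interval -0.31 to -0.01, limma adjusted p = 0.745). The mean of the receptor probe sets was itself 5.85 to 6.18 on hemophagocyte arrays and 6.103 to 6.27 on resting arrays. Relative to these probe sets the groups overlapped, Saa2 lying above 9.3% to 14.0% in hemophagocytes and 10.5% to 11.6% in resting macrophages. With array background as a covariate the change was -0.198 for Saa2, -0.07 for Saa4 and -0.06 for Cp. The part of background in these changes was not tested further. Saa1, Saa2 and Saa4 lay above at most 28.0%, 14.0% and 15.3% of the receptor probe sets on any array. Their values were thus within the background measure on all arrays, and their intervals set no bound on the transcripts. Saa1 and Saa2 are near-identical genes, and how far each probe set also reads the other transcript is unknown.

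The heme and iron carriers Hpx and Cp had overlapping groups, and the intervals of their changes spanned 0. Hpx stood at 6.54, 6.44, 6.61 and 6.59 on hemophagocytes 2, 3, 5 and 6, against 6.64, 6.62, 6.67 and 6.39 on resting macrophages 3, 4, 5 and 6. Its change was -0.04 (95% interval -0.22 to 0.14, limma adjusted p = 0.93). Cp stood at 5.37 to 5.58 in hemophagocytes and 5.44 to 5.64 in resting macrophages, with a change of -0.13 (95% interval -0.30 to 0.04, limma adjusted p = 0.745). Over all arrays Hpx lay above 47.9% to 67.4% of the receptor probe sets and Cp above 21.2% to 30.0%. Both were thus within the background measure, and their intervals set no bound on the transcripts.

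**Figure D2:**
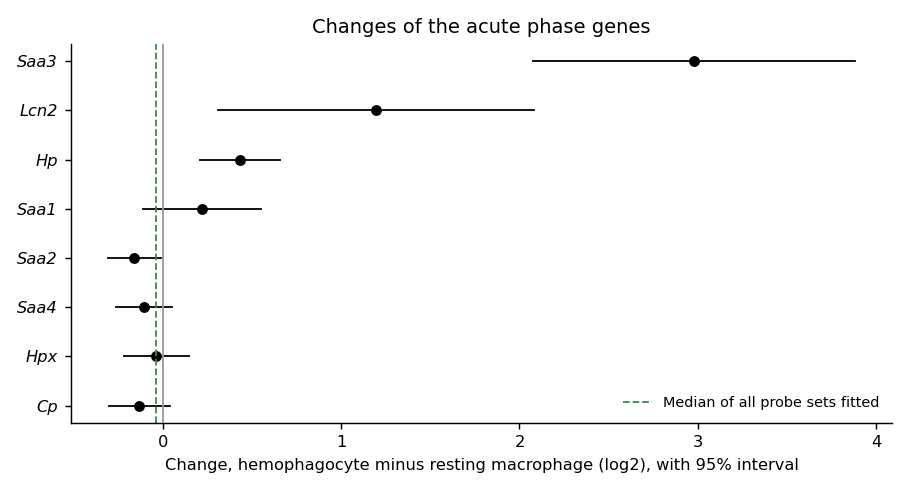
Change of each acute phase gene, hemophagocyte minus resting macrophage (log2, horizontal axis), as a point with its 95% interval from limma (n = 4 arrays each); the dashed line is the median of all probe sets fitted, -0.04. The interval of Saa3 begins at 2.07, those of Lcn2 and Hp lie above 0, that of Saa2 ends at -0.01, and the other 4 span 0.

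Of the 8 members 0 passed the threshold, against 0.0198% of all probe sets that passed with higher values and 0% with lower values. At an unadjusted p under 0.05 there were 3 members with higher values and 1 with lower values, against 1.56% and 5.08% of all probe sets. This background depends on the scaling, since 315 higher and 1027 lower probe sets were behind it with the deposited values, and 632 and 554 after cyclic loess. The groups did not overlap in 3 members with higher and 1 with lower values, against 0.816% and 3% of all probe sets. Since these genes were proposed with this comparison known, nothing is read from the counts. The median change was 0.09 over the members and -0.04 over all probe sets, and 4 members lay above 0, where 36.2% of all probe sets did (51% after cyclic loess).

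**Figure D3:**
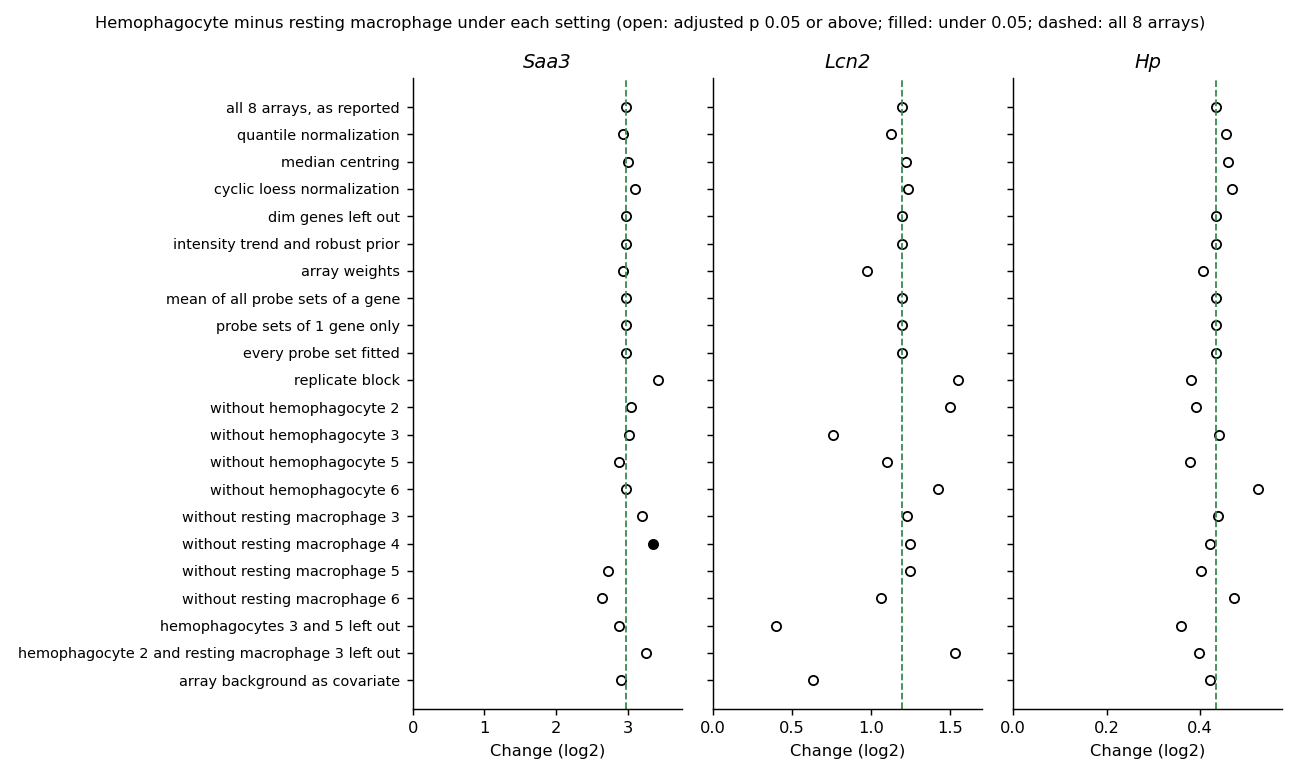
Change of Saa3, Lcn2 and Hp, hemophagocyte minus resting macrophage (log2, horizontal axes with different scales), under each processing setting (rows); filled points have a limma adjusted p under 0.05, open points do not, and the dashed line is the value with all 8 arrays. Saa3 stayed between 2.64 and 3.42 and passed only without resting macrophage 4, Lcn2 ranged from 0.40 to 1.55, and Hp from 0.36 to 0.52.

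The genes with the pattern most like that of Saa3 were Gng5, Ftl1, a probe set shared by Ino80 and Rpl35a, Rpl8 and Fth1. Likeness was Pearson's r over the 8 arrays, among 619 other probe sets that ranged over at least 1 log2 unit, and it is a description in which the difference between the groups has a large share. Gng5, a gamma subunit of heterotrimeric G proteins, had r = 0.92, and Ftl1, the ferritin light chain, had r = 0.92. The Ino80 and Rpl35a probe set had r = 0.91, the ribosomal protein Rpl8 r = 0.90 and Fth1, the ferritin heavy chain, r = 0.87. Within the 4 resting arrays Fth1 and Rpl8 had r = 0.97 and 1.00 with Saa3, and within the 4 hemophagocyte arrays 0.60 and -0.58. Gng5, Ftl1 and the Ino80 and Rpl35a probe set had 0.26, 0.83 and 0.96 within the resting arrays. Within the hemophagocyte arrays they had 0.73, 0.42 and 0.09, and each such value rests on 4 arrays. Fth1 stood at 9.03, 9.35, 7.87 and 6.98 on resting macrophages 3, 4, 5 and 6, and Rpl8 at 6.21, 6.32, 5.82 and 5.77, so that resting macrophages 3 and 4 were the high ones in all 3 genes.

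Lcn2 and Hp had other companions. Most like Lcn2 were Stfa3, a cystatin-type protease inhibitor (r = 0.97), Rpph1, the RNA of ribonuclease P (r = 0.97), and Bola2, an iron-sulfur cluster protein (r = 0.97). All 3 were highest on hemophagocyte 3 and next on hemophagocyte 5, where Stfa3 stood at 10.31 and 8.01, against 4.90 to 5.35 on the other arrays. Most like Hp were Atp5md, a subunit of ATP synthase (r = 0.95), Ftl1 (r = 0.91) and Lilr4b, a leukocyte immunoglobulin-like receptor (r = 0.89). Atp5md stood at 8.88 and 8.91 on hemophagocytes 2 and 5, 7.22 on hemophagocyte 3 and 5.60 on hemophagocyte 6, against 5.48 to 5.76 on resting arrays. Between members, Saa3 had r = 0.77 with Hp, 0.68 with Lcn2, 0.39 with Saa1 and 0.02 with Hpx over the 8 arrays, and negative values of -0.87 with Saa2, -0.75 with Saa4 and -0.56 with Cp.

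**Figure D4:**
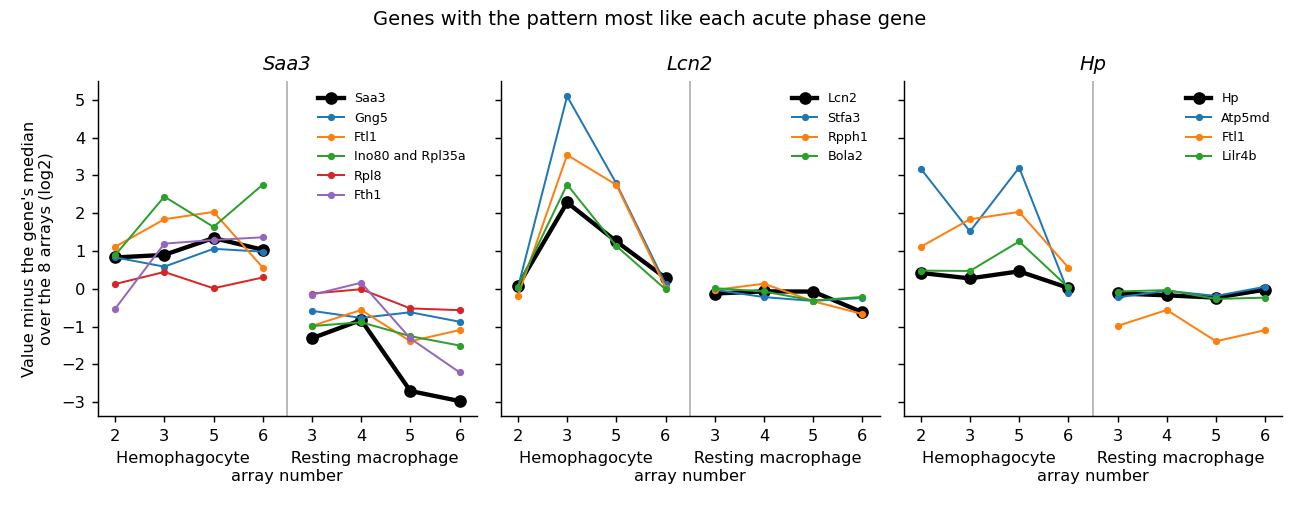
Values of Saa3, Lcn2 and Hp (thick black) and of the probe sets most like each (coloured), each as a log2 difference from that gene's median array (vertical axis), for the numbered hemophagocyte arrays on the left and resting macrophage arrays on the right of each panel; lines join the values of 1 gene within a group and imply no order. Saa3 was high on all 4 hemophagocytes, Lcn2 and its companions on hemophagocytes 3 and 5, and Hp lowest among hemophagocytes on number 6.

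Other acute phase proteins had changes centred near that of all genes. Of 28 listed, 26 were measured on 25 probe sets, and 0 passed in either direction, with a median change of -0.04 (-0.04 over all probe sets). The 4 with the smallest p all had lower values that did not pass. They were Steap4, a metalloreductase (-0.23), Hamp, the iron hormone hepcidin (-0.29), Fgg, a fibrinogen chain (-0.21), and Crp, C-reactive protein (-0.17), each with limma adjusted p = 0.745. Negative acute phase proteins, which the liver lowers in inflammation, had 0 of 9 past the threshold and a median of -0.07. The steroid carrier Serpina6 stood at -0.24, the retinol carrier Rbp4 at -0.19, the thyroid hormone carrier Ttr at -0.12 and coagulation factor F12 at -0.10. With the same covariate they stood at -0.08, -0.18, -0.14 and -0.14. Of 10 hepatocyte markers 0 passed, and their mean was 6.06 to 6.15 in hemophagocytes and 6.13 to 6.17 in resting macrophages. Alb, the main liver plasma protein, lay above 19.1% to 28.6% of the receptor probe sets.

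The cytokines that induce the response, and their receptors, had 0 of 22 measured genes past the threshold and a median change of -0.01. The oncostatin M receptor Osmr (-0.16), Tnf (-0.12), Tlr9, the receptor of CpG DNA (-0.17), and Il10ra, the target of the blocking antibody (0.11), had the smallest p. With array background as a covariate the changes of Osmr, Tnf, Tlr9 and Il10ra were -0.02, -0.09, 0.002 and 0.11. Il6 stood at 3.14 to 3.70 in hemophagocytes and 3.20 to 3.50 in resting macrophages, and Il1b at 6.68 to 6.86 and 6.53 to 6.79. The means of the receptor probe sets were 5.85 to 6.27 over the arrays. Il6 lay below them on every array, so its values set no bound on the transcript. Of the transcription regulators 0 of 19 passed, with a median of 0.02. Bcl3, a nuclear IkB protein induced by NF-kB (0.24), Nfkbia, the inhibitor IkB alpha (0.13), Socs3, the STAT3 feedback inhibitor (-0.09), and Jun (0.11) had the smallest p. The hemophagocyte values of Socs3 (7.47 to 7.48) all lay below the resting ones (7.54 to 7.60). Stat3 stood at 5.76 to 5.91 in hemophagocytes against 5.78 to 5.92 in resting macrophages, and Cebpb, a C/EBP factor, at 6.04 to 6.20 against 5.80 to 6.44. Stat3 and Jun lay below the mean of the receptor probe sets on every array, so their values set no bound on the transcripts.

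Receptors and clearance partners of the members had 0 of 12 genes past the threshold and a median change of -0.08. The probe set of highest mean listed for Itgam, the integrin chain CD11b of myeloid cells, also names Rpl35, a ribosomal protein. It stood at 8.20, 9.50, 6.66 and 6.88 on hemophagocytes 2, 3, 5 and 6, against 6.44 to 6.65 on resting arrays. The groups did not overlap, and the change of 1.26 did not pass (limma adjusted p = 0.745). On the probe set that names Itgam alone the change was 0.03, so the difference cannot be given to Itgam. For the shared probe set the change was 0.25 with array background as a covariate and 0.70 without hemophagocyte 3. The lipocalin receptors Lrp2 (-0.14) and Slc22a17 (-0.12) and Lrp1, the hemopexin receptor (-0.10), had lower values that did not pass. With array background as a covariate each of these 3 changes was -0.11. Cd163, the receptor for haptoglobin with bound hemoglobin, stood at 5.51 to 6.01 in hemophagocytes and 5.73 to 5.93 in resting macrophages.

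Ferritin light chain was the only gene of these lists past the threshold. Among 19 measured genes of heme and iron handling, Ftl1, which stores iron, rose 5.25-fold and 0 fell, with a list median of -0.06. Ftl1 stood at 8.95, 9.68, 9.88 and 8.41 on hemophagocytes 2, 3, 5 and 6, against 6.86, 7.28, 6.45 and 6.75 on resting macrophages 3, 4, 5 and 6 (limma adjusted p = 0.036). Its probe set names 3 genes, Ftl1 and a pair of microRNAs, and the call ended in 15 of 21 alternative settings, where the adjusted p reached 0.67. It ended without hemophagocyte 3 (adjusted p = 0.11), hemophagocyte 5 (0.055) or resting macrophage 3, 4, 5 or 6 (0.13, 0.072, 0.23 and 0.20). Fth1 had a mean of 10.02 ± 0.91 in hemophagocytes, against 8.31 ± 1.09 in resting macrophages (SD, n = 4 each), and missed the threshold (limma adjusted p = 0.745). Steap3, an endosomal ferrireductase (-0.13), and Blvrb, a biliverdin reductase (0.16), did not pass either. The neutrophil granule list without Lcn2 and Hp had 0 of 10 past the threshold and a median of -0.10, with the antibacterial Pglyrp1 at -0.19, Olfm4 at -0.28, Ngp at -0.11 and Cd177 at -0.09.

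**Figure D5:**
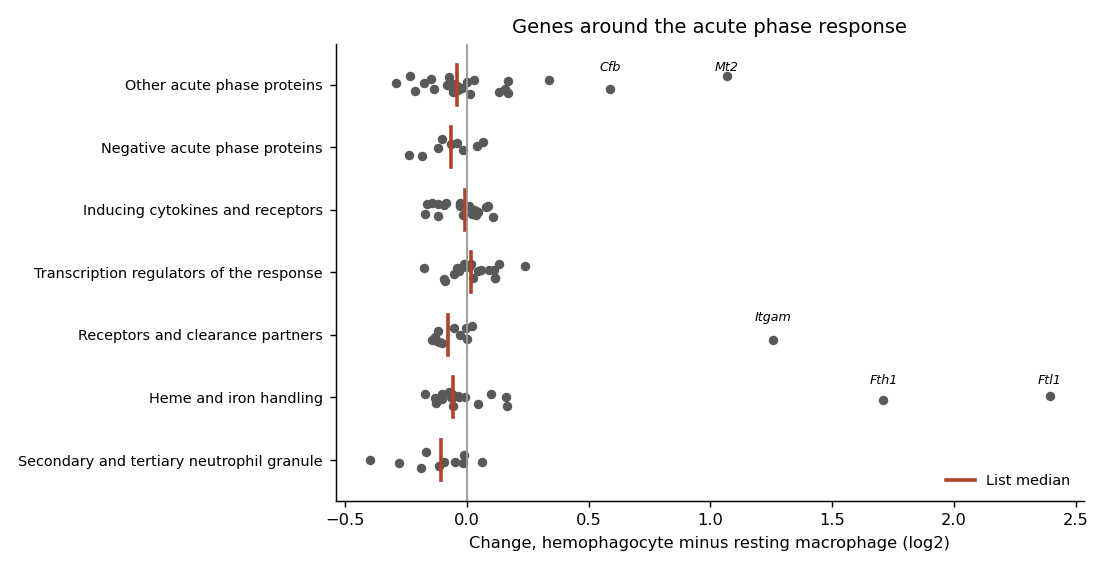
Change of each measured gene of 7 lists around the acute phase response, hemophagocyte minus resting macrophage (log2, horizontal axis; 1 point per probe set, vertical scatter arbitrary), with list medians as red bars. Medians lay between -0.10 and 0.02, the points farthest to the right are named (the one named Itgam is shared with Rpl35), and Ftl1 alone passed the threshold.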

How the data were processed

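The authors deposited 1 table of log2 values per probe set and array, judged to be log2 by the span of the values. The tool named is Affymetrix Expression Console 1.1, per the submitters' processing notes. Background correction, probe summary and normalization are not stated in these sources. Array medians lay between 6.10 and 6.17, and values were used as deposited. The platform annotation named 1 gene for 21789 probe sets and several for 1621, and did not list 12146. Each symbol was represented by its probe set of highest mean, which left 20220 different probe sets. They were fitted with limma 3.58.1 in R 4.3.3 (lmFit, eBayes, 4 arrays against 4, no block). Benjamini-Hochberg adjustment ran across the whole set, with a threshold of 0.05. Scripts were tested on simulated data. The labels do not say that arrays came from separate mice, and the spread that p-values measure may be technical. Read depth does not apply to arrays, and 4 per group limit the precision. The genes, 7 lists and 12 marker lists were chosen with earlier results of these data known. Named are all 8 members, the 4 genes of smallest p in each list with any past the threshold, and the probe sets most like Saa3 (5), Lcn2 (3) and Hp (3), passing over predicted genes, microRNAs and sensory receptors. Further genes of the lists are given by value for their role, some picked after their values were seen. The annotation's Entrez identifiers gave the same symbols in the RefSeq table of GRCm38.p6. Alternatives were scaling, a filter on dim genes, the variance model, array weights, the choice of probe sets, a replicate block, a background covariate and arrays left out.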

Additional observations from a re-analysis of the deposited data

Results flagged for a closer look

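Among 44 named genes in both groups of 4 arrays, 88 groups in all, 3 held an array far from the other 3, with a gap to the nearest, as a share of the group's whole range, above Dixon's 95% critical value. Chance gives about 1 in 20 groups. Lcn2 on resting macrophage 6 stood at 5.79 where the other resting arrays stood at 6.29 to 6.35, a gap of 0.898 of the range. Cp on hemophagocyte 5 stood at 5.58 where the other hemophagocytes stood at 5.37 to 5.39, a gap of 0.904 of the range. Fth1 on hemophagocyte 2 stood at 8.66 where the other hemophagocytes stood at 10.38 to 10.55, a gap of 0.912 of the range.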

How the results depend on the processing

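The number of probe sets past the threshold was 4, all higher, and 0 were lower under any of the 21 alternatives. It was 1 with an intensity trend and robust prior, with the probe sets of each gene averaged, with every probe set fitted, with array background as a covariate and without hemophagocytes 3 and 5. It was 2 with probe sets of 1 gene only, 7 without hemophagocyte 2 and resting macrophage 3, and 1 to 15 when single arrays were left out (15 without hemophagocyte 2, 2 without hemophagocyte 3 or resting macrophage 3 or 4, 1 without resting macrophage 5 or 6). With the replicate number as a block it was 9, and no member passed. In that fit hemophagocyte 2 and resting macrophage 4 had no array of the same number in the other group. They thus added nothing to the change, and resting macrophage 4 was the resting array with the highest Saa3 value. Deviations of arrays numbered 3, 5 and 6 correlated at 0.137, 0.055 and 0.123 across the groups. Pairs of unlike number ran from -0.24 to 0.235, the highest being hemophagocyte 2 with resting macrophage 3. These values do not settle whether equal numbers pair arrays, and the main fit used no block. The number of members past the threshold was 0 throughout, except for Saa3 without resting macrophage 4, a range of 0 to 1 over single arrays left out. Of the alternative values of 44 named genes, 881 kept direction and side of the threshold, 24 lost a call, 1 gained one and 2 reversed. With array background as a covariate, Hpx had a change of 0.0161 and Tlr9 of 0.0021. The causes were not tested. At an unadjusted p under 0.05, higher and lower probe sets numbered 315 and 1027 with the deposited values, 498 and 764 with quantile-normalized arrays, 510 and 701 with median-centred arrays, and 632 and 554 with cyclic loess, where 51% of all changes were above 0. Filtering dim genes removed Saa1, Saa2, Saa4 and Cp.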

Other observations

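Some transcripts outside the report's comparison divided the resting arrays or stood out on single hemophagocyte arrays. Cxcl13, a B cell-attracting chemokine chosen after its values were seen, stood at 9.47 and 9.82 on resting macrophages 3 and 4, but 7.43 and 7.14 on resting macrophages 5 and 6. Saa3 divided the same arrays in the same way. On hemophagocytes 2, 3, 5 and 6 Cxcl13 stood at 6.87, 8.13, 9.53 and 6.85, while Saa3 stood at 10.55 to 11.06 on all of them. The metallothioneins, metal-binding acute phase proteins, were each high on 1 array, Mt2 at 9.54 on hemophagocyte 3 and 5.59 to 6.32 on all others, and Mt1 at 8.15 on hemophagocyte 5 and 6.84 to 7.09 on all others.

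Globin RNA was measured by probe sets that name several globin genes, and these also differed by array. The hemoglobin protein that Hp binds was not measured. The beta-globin probe set stood at 5.85, 9.67, 9.82 and 11.34 on hemophagocytes 2, 3, 5 and 6, whereas the resting arrays had 9.59 to 11.71. The alpha-globin probe set stood at 6.06, 7.77, 8.93 and 10.46 on the same hemophagocytes, whereas the resting arrays had 8.68 to 10.41. Hp had its lowest hemophagocyte value, 6.27, on hemophagocyte 6, where both globin probe sets were highest among hemophagocytes. There Hp lay above 47.4% of the receptor probe sets, within the background measure, and a link to globin RNA was not tested.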
